A study of Mus musculus with 24 samples.

Results

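Germ line genes were followed through the differentiation of mouse embryonic stem cells, 9 in all, namely Tex19.1, Dazl, Mael, Stra8, Dmrt1, Sycp1, Sycp3, Stk31 and Rnf17. They were the records of the gene expression table with these names, 9 of 14737 genes. Expression was measured by sequencing of polyadenylated RNA in 24 libraries, 3 from each of 8 groups. Wild type 129/Sv cells and 129/Sv cells of the genotype Carma3xpA/+ were sampled undifferentiated (d0) and as embryoid bodies at d3, d6 and d10. Carma is a gene for a long noncoding RNA, and in the usual notation Carma3xpA/+ cells carry 3 polyadenylation signals in 1 of its alleles and a normal copy on the other chromosome. Undifferentiated cells of both genotypes grew on mouse embryonic fibroblast feeders in serum and LIF. Aggregation in hanging drops then started cardiac differentiation, so none of the groups was treated to make germ cells. Whether the 3 biological replicates of a genotype came from separate clones or cultures is not given in the sources used here, so a p-value covers no more than the spread among these libraries, which may be technical. Carma itself was not analysed here, and the genotype labels could not be checked against its level.

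Mouse embryonic stem cells express a set of genes whose products act mainly in germ cells and which are silenced in the cells of the body. Silencing of such genes is known to involve DNA methylation of CpG-rich promoters and a noncanonical polycomb complex that contains PCGF6, L3MBTL2, MGA and E2F6. MGA binds DNA together with MAX at E-box motifs, and E2F6 binds E2F motifs. The 9 genes fall into groups by role. Dazl encodes an RNA-binding protein that germ cells need for their development. Dmrt1 encodes a DM domain transcription factor of the gonad and germ line, and Stra8 a protein induced by retinoic acid that starts meiosis. Sycp1 and Sycp3 encode the transverse filament and an axial element protein of the synaptonemal complex, which joins homologous chromosomes in meiosis. Mael, Rnf17 and Stk31 act in or with the cytoplasmic germ granules and the piRNA pathway, which holds transposons in check, Rnf17 and Stk31 through Tudor domains. Tex19.1 encodes a mammalian protein of germ cells and pluripotent cells that limits transposons in the mouse germ line.

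The promoters are shown because the germ line promoters known as targets of this silencing are rich in CpG and often hold an E-box or an E2F motif. RefSeq promoters (GRCm38.p6, the assembly of mm10) of 300 bases, 250 before to 50 after a transcription start, matched 7 of the 9 genes, all but Dmrt1 and Rnf17. They are written 5′ to 3′ on the strand of the gene, with capitals for CACGTG, the E-box, which reads the same on both strands, and for TCCCGC, an E2F motif, on either strand (GCGGGA on the other). The E-box and E2F matches did not overlap. The windows printed are chr11:121145893-121146192 (plus strand) for Tex19.1, chr17:50293571-50293870 (minus strand) for Dazl, chr1:166238695-166238994 (minus strand) for Mael, chr3:102936051-102936350 (minus strand) for Sycp1 and chr10:88459337-88459636 (plus strand) for Sycp3.
Tex19.1: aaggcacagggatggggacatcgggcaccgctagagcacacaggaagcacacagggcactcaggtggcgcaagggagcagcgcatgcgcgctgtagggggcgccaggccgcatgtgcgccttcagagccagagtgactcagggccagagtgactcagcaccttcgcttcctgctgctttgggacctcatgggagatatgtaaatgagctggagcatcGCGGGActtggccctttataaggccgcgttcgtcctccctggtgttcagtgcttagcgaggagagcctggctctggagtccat
Dazl: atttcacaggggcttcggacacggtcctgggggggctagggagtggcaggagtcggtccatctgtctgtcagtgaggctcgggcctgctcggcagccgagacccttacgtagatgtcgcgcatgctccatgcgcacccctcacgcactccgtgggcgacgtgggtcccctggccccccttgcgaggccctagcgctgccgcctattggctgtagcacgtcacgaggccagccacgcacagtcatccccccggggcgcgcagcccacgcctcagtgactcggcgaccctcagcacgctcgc
Mael: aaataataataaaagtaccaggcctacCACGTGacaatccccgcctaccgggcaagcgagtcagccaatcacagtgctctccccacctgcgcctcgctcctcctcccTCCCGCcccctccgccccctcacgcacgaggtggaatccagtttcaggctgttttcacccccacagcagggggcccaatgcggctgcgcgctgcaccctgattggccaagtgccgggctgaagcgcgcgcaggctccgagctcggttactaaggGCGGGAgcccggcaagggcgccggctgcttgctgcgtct
Sycp1: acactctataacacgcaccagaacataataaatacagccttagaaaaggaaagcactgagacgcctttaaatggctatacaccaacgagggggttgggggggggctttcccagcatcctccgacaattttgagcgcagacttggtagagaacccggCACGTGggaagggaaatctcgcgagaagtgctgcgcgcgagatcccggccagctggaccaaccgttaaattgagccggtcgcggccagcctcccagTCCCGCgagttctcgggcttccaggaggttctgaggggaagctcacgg
Sycp3: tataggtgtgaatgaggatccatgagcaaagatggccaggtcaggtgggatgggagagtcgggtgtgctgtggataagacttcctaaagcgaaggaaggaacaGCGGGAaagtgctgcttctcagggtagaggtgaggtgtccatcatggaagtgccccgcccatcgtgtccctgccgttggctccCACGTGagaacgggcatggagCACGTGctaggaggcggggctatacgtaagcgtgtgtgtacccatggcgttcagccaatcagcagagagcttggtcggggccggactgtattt
Mael, Sycp1 and Sycp3 held both motifs, which 3.70% of the 13043 RefSeq starts of tested genes did. Sycp3 had 2 E-boxes and 1 E2F motif, Mael 1 E-box and 2 E2F motifs, and Sycp1 1 of each. Tex19.1 held 1 E2F motif and no E-box, both starts of Stk31 held 1 E-box and no E2F motif, and Dazl and Stra8 held neither. Among all tested genes' starts, 9.94% held the E-box and 34.7% the E2F motif. The number of CpG dinucleotides in the window was 16 for Tex19.1, 28 for Dazl, 24 for Mael, 10 for Stra8, 21 for Sycp1, 15 for Sycp3, and 29 and 28 for the starts of Stk31, against a median of 20 over the starts of tested genes and 7 over all 32817 RefSeq starts. A match describes these letters only, and no binding or methylation was measured.

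Values are FPKM, fragment counts scaled to transcript length and to the library's total. Group values are means ± SD, n = 3 libraries. Summed FPKM was 245274 to 306848 per library, and 10667 to 11921 genes reached 1 FPKM. Replicates correlated at 0.967 or more across genes (Pearson's r of log2(FPKM + 1), genes not being independent), apart from replicate 1 of Carma3xpA/+ at d0, at 0.950 and 0.955 with replicates 2 and 3. That library was the highest of its group for Mael (21.3 against 9.06 and 8.15 FPKM), Stra8 (12.6 against 7.64 and 8.52) and Sycp3 (68.6 against 33.1 and 34.5). Its feeder fibroblast markers summed to 50.7 FPKM, the lowest of the d0 libraries, whose highest sum was 174. These sums were mainly Fn1, with d0 means of 144 FPKM in wild type and 80.3 in Carma3xpA/+. Col1a2, Col3a1, Lum, Dcn, Postn and Twist2 had d0 means under 1 FPKM in both genotypes. Of the 10 markers 1 was called higher in Carma3xpA/+ at d0 and 1 lower. The sum is thus no measure of feeder content. The part of this library's divergence in the values of the germ line genes was not tested. All 9 genes passed the filter of 1 FPKM in 3 libraries, Sycp1 in only 7 libraries, Stra8 in 10, Stk31 in 12, Dazl in 14, Mael in 15, Rnf17 in 19, Dmrt1 in 20, Tex19.1 in 22 and Sycp3 in all 24. Differences were tested with limma on log2(FPKM + 1), a scale that understates the change of low genes, with p-values adjusted after Benjamini and Hochberg over all 13373 tested genes. A difference with an adjusted p under 0.05 was called.

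**Figure D1:**
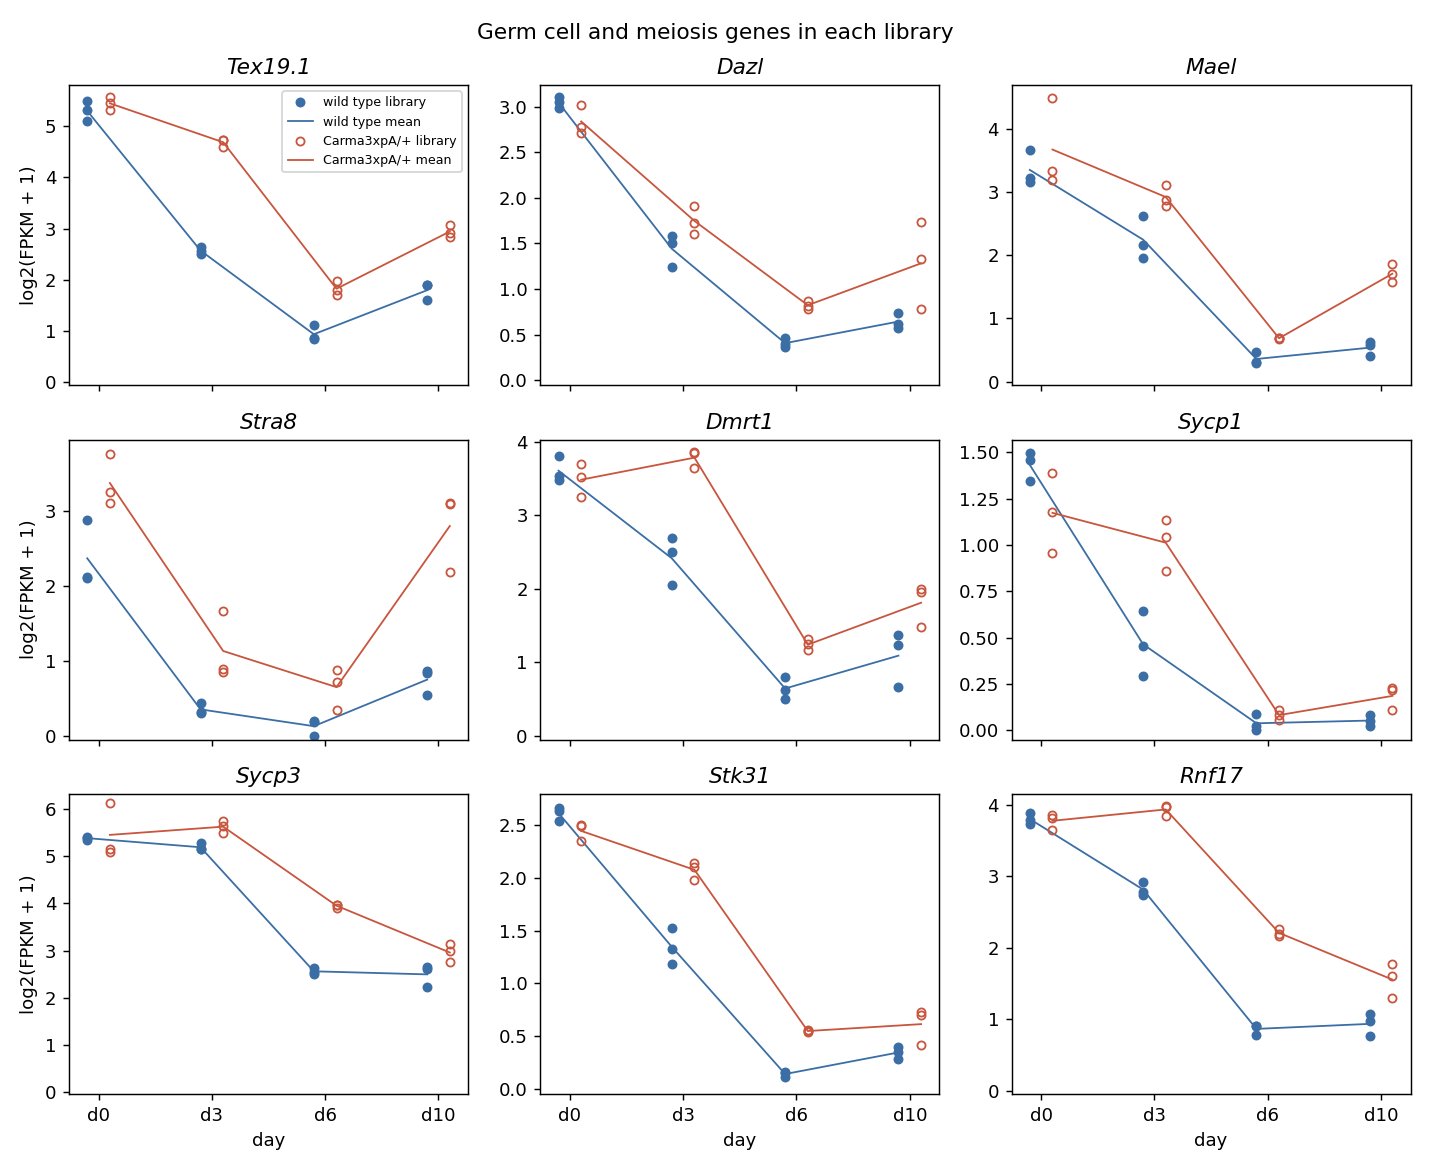
Expression of the 9 genes in each of the 24 libraries, as log2(FPKM + 1) against the day. Points are libraries and lines join the group means of wild type (filled points) and Carma3xpA/+ cells (open points), and at d3 all 3 Carma3xpA/+ libraries lie above all 3 wild type libraries for each of the 9 genes.

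In wild type cells the germ line genes were highest at d0 and fell as the embryoid bodies formed. Sycp3 and Tex19.1 stood highest per length at d0, at 40.8 ± 0.79 and 38.5 ± 5.3 FPKM, and Sycp1 lowest at 1.70 ± 0.14. Rnf17 (12.95 ± 0.72), Dmrt1 (11.3 ± 1.5), Mael (9.30 ± 2.1), Dazl (7.26 ± 0.33), Stk31 (5.13 ± 0.26) and Stra8 (4.35 ± 1.7) lay between. From d0 to d3 8 of the 9 genes fell, a direction called for 27.7% of all tested genes, and the median log2 difference of the 9 was -1.19 against -0.0019 over all tested genes. Tex19.1 fell 7.79-fold to 4.94 ± 0.29 FPKM (log2 difference -2.73 ± 0.12 SE, adjusted p = 5.00e-13), and Stra8 fell 15.6-fold to 0.279 ± 0.070 FPKM (-2.02 ± 0.26, adjusted p = 1.48e-06). Sycp3 did not pass the test, at 35.6 ± 1.8 FPKM at d3 (-0.19 ± 0.18, adjusted p = 0.392). Its 3 libraries were nevertheless all below those of d0, as were those of the other 8 genes, an order that 35.6% of tested genes showed. A fit of only these 2 groups called Sycp3 as well (adjusted p = 0.0205).

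Between d3 and d6 the wild type levels of 8 genes fell again, a direction called for 24.7% of tested genes. Sycp3 now fell 7.26-fold to 4.90 ± 0.29 FPKM (-2.63 ± 0.18, adjusted p = 1.52e-10), and Mael fell 13.5-fold to 0.285 ± 0.085 FPKM (-1.89 ± 0.23, adjusted p = 7.63e-07). Stra8 was already near 0 and did not pass (-0.22 ± 0.26, adjusted p = 0.471). At d6 it was at 0.146 and 0.141 FPKM in the first and second library and listed at 0 in the third. Of the synaptonemal complex genes Sycp1 was already at 0.386 ± 0.17 FPKM at d3, 22.7% of its d0 mean, where Sycp3 stood at 87.2%. From d6 to d10 only Tex19.1 passed the test among the 9, at 2.71, 2.75 and 2.02 FPKM at d10 against 1.17, 0.810 and 0.786 at d6 (0.86 ± 0.12, adjusted p = 4.60e-06), where 24.6% of all tested genes were called higher. This count rests on the settings, since 3 genes were called higher with the replicate number in the model and 4 with a pseudocount of 0.1.

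At d0 1 of the 9 genes passed the test between the genotypes. Stra8 was at 12.6, 7.64 and 8.52 FPKM in the Carma3xpA/+ libraries and at 3.36, 3.31 and 6.36 in the wild type libraries. The groups did not overlap, and the log2 difference was 1.01 ± 0.26 (adjusted p = 0.0106), where 9.53% of all tested genes were called higher. The call was lost without wild type replicate 1 (adjusted p = 0.0584) or replicate 2 (0.0582), held without the divergent replicate 1 of Carma3xpA/+ (0.81, adjusted p = 0.0485), and was lost in a fit of the 2 groups alone (0.149). Tex19.1 started from similar values, 39.0, 42.5 and 46.4 FPKM in Carma3xpA/+ and 38.9, 43.6 and 33.0 in wild type. These libraries overlapped, and the difference did not pass the test (0.15 ± 0.12, adjusted p = 0.400). Stk31 lay lower in Carma3xpA/+ without overlap, at 4.62, 4.09 and 4.65 FPKM against 5.34, 5.21 and 4.83. It did not pass the test (-0.17 ± 0.094, adjusted p = 0.217).

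At d3 the germ line genes stood higher in Carma3xpA/+ embryoid bodies, with Tex19.1 5.00-fold, Dmrt1 2.90-fold, Sycp1 2.65-fold, Rnf17 2.37-fold and Stk31 2.07-fold above wild type. These 5 of 9 passed the test, where 4.54% of all tested genes were called higher, and none was called lower. The median log2 difference of the 9 was 0.73, against -0.01 over all tested genes. All 3 Carma3xpA/+ libraries were above all 3 wild type libraries for each of the 9 genes. Groups that did not overlap, in either direction, were found for 38.5% of tested genes.

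Among the genes tied to transposon control and germ granules, Tex19.1 at d3 was at 25.5, 25.7 and 23.0 FPKM in Carma3xpA/+ and at 4.89, 5.25 and 4.68 in wild type. The lowest Carma3xpA/+ library lay far above the highest wild type library (2.11 ± 0.12, adjusted p = 1.01e-09). Rnf17 was at 14.7, 14.8 and 13.4 FPKM in Carma3xpA/+ and at 6.53, 5.89 and 5.69 in wild type (1.12 ± 0.11, adjusted p = 1.89e-06). Stk31 was at 3.31, 3.41 and 2.95 FPKM against 1.88, 1.27 and 1.51 (0.73 ± 0.094, adjusted p = 5.25e-05). Both Tudor domain genes thus had non-overlapping groups. Mael, at 7.58, 6.35 and 5.84 FPKM against 5.15, 3.45 and 2.88, did not overlap either but did not pass (0.67 ± 0.23, adjusted p = 0.100). With the spread taken from only these 2 groups, limma called Mael (adjusted p = 0.0351). 

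Of the synaptonemal complex genes, Sycp1 at d3 was at 0.817, 1.06 and 1.19 FPKM in Carma3xpA/+ and at 0.563, 0.370 and 0.225 in wild type (0.55 ± 0.10, adjusted p = 0.00152). These are low values, and 2 of the 6 libraries reached 1 FPKM. Sycp3 was at 44.3, 52.4 and 49.0 FPKM against 37.7, 34.4 and 34.6 and did not pass (0.44 ± 0.18, adjusted p = 0.188). A fit of only the 2 groups called Sycp3 (adjusted p = 0.00773). Among the regulators, Dmrt1 was at 13.6, 13.4 and 11.6 FPKM in Carma3xpA/+ against 5.47, 4.66 and 3.15 in wild type (1.37 ± 0.18, adjusted p = 8.59e-05). Dazl was at 2.31, 2.76 and 2.03 FPKM against 1.85, 1.36 and 1.99, the closest approach of the groups among the 9 genes (0.30 ± 0.16, adjusted p = 0.332). Stra8 was at 2.17, 0.851 and 0.799 FPKM against 0.359, 0.230 and 0.247 and did not pass (0.78 ± 0.26, adjusted p = 0.0796). Each of the 5 calls at d3 held without any 1 library of the 2 groups. Without the divergent d0 library, which is in neither group and enters only through the shared spread, 8 genes were called, Mael (adjusted p = 0.00468), Stra8 (0.0446) and Sycp3 (0.00735) joining.

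**Figure D2:**
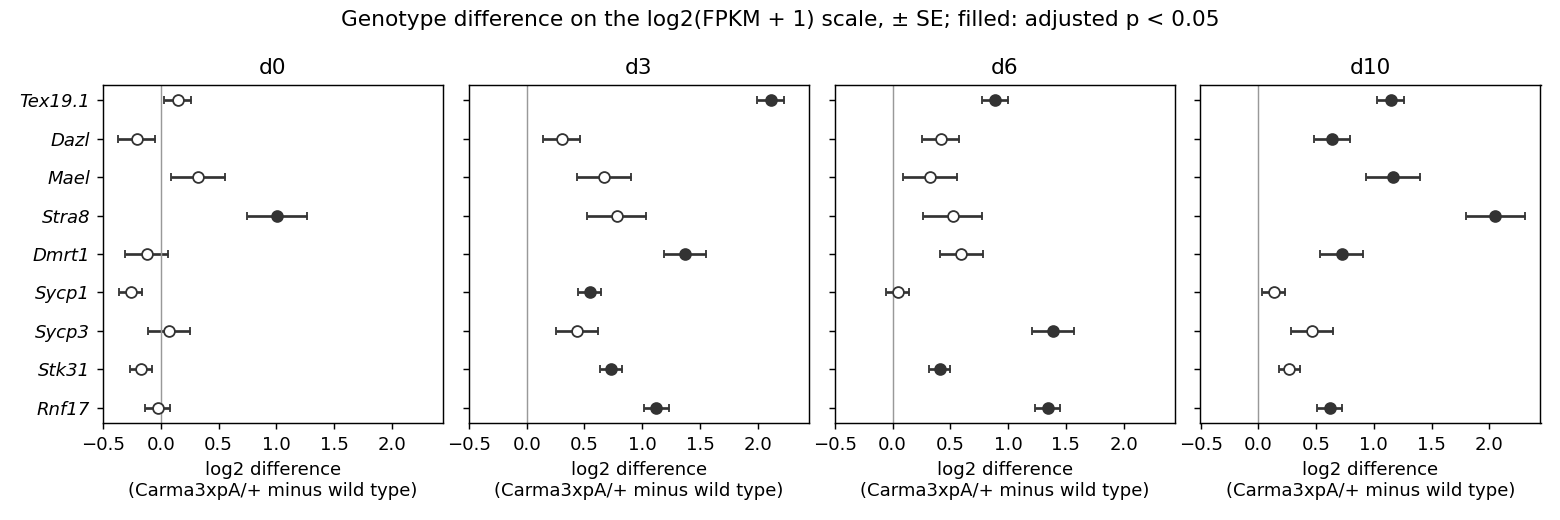
Log2 difference of each gene between Carma3xpA/+ and wild type on each day, on the log2(FPKM + 1) scale with its SE. Filled points passed an adjusted p of 0.05: 1 gene at d0, 5 at d3, 4 at d6 and 6 at d10, all to the right of 0.

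Set against d0, the step to d3 took the 9 genes by different amounts in the 2 genotypes. Wild type Tex19.1 stood at 12.8% of its d0 mean and Carma3xpA/+ Tex19.1 at 58.0%. Rnf17 stood at 46.6% and 112%, Dmrt1 at 39.3% and 125%, Sycp1 at 22.7% and 80.4%, and Stk31 at 30.3% and 72.4%. In these 5 genes the genotype difference at d3 exceeded that at d0 by the test of the difference itself, by 1.97 ± 0.16 for Tex19.1 (adjusted p = 2.10e-06), 1.15 ± 0.15 for Rnf17 (0.000293), 1.49 ± 0.26 for Dmrt1 (0.00344), 0.81 ± 0.14 for Sycp1 (0.00344) and 0.90 ± 0.13 for Stk31 (0.000863), where 2.07% of all tested genes were called in this direction. All 5 calls held without any 1 library, and the one for Sycp1 was lost in a fit of the 4 groups alone (0.0648). Dazl stood at 23.9% and 38.4%, Mael at 41.2% and 51.3%, Sycp3 at 87.2% and 107% and Stra8 at 6.41% and 13.3%, and these 4 did not pass the test of the difference. Without the divergent d0 library the Carma3xpA/+ percentages became 76.6% for Mael and 144% for Sycp3, and lay between 15.8% (Stra8) and 136% (Dmrt1) for the other 7.

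Within Carma3xpA/+ cells alone, 5 genes fell from d0 to d3, a direction called for 24.9% of tested genes. They were Tex19.1 (-0.76 ± 0.12, adjusted p = 1.74e-05), Dazl (-1.09 ± 0.16, 1.04e-05), Mael (-0.75 ± 0.23, 0.0109), Stra8 (-2.24 ± 0.26, 5.19e-07) and Stk31 (-0.37 ± 0.094, 0.00258). The call of Mael rested on the divergent d0 library and was lost without it (-0.34, adjusted p = 0.0876). Dmrt1, Rnf17, Sycp1 and Sycp3 did not pass, and their d0 and d3 libraries overlapped. For Dmrt1, Rnf17 and Sycp3 the d3 group of Carma3xpA/+ had the highest mean of the 8 groups, at 12.8 ± 1.1, 14.3 ± 0.79 and 48.6 ± 4.1 FPKM.

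**Figure D3:**
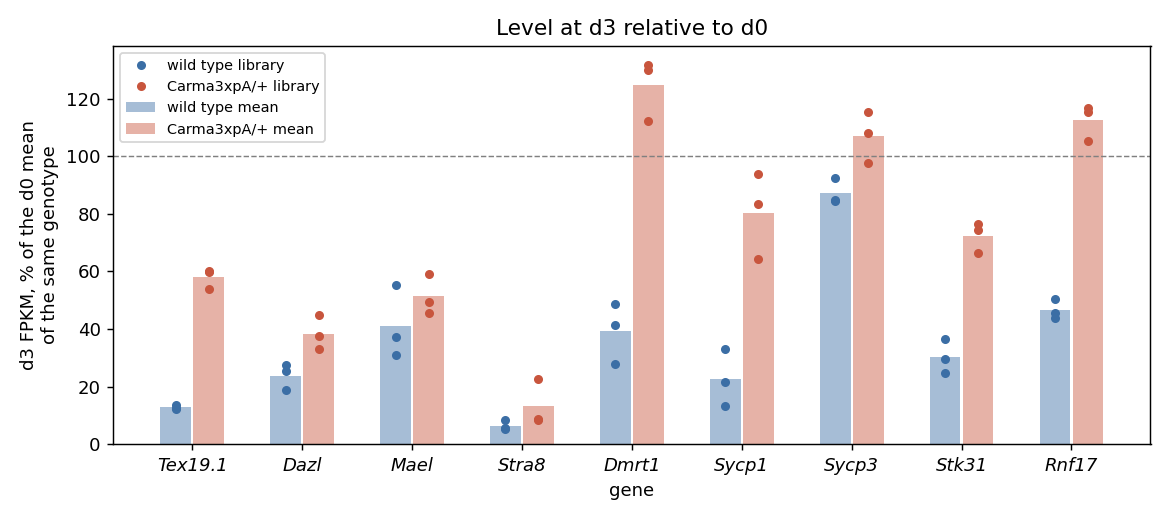
Expression at d3 as a percentage of the d0 mean of the same genotype. Bars are means and points the 3 libraries, and the dashed line marks 100%, which the Carma3xpA/+ means of Dmrt1, Sycp3 and Rnf17 exceed and no wild type mean reaches.

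At d6 4 of the 9 genes were higher in Carma3xpA/+, where 4.30% of all tested genes were called higher. Within Carma3xpA/+, 8 genes fell from d3 to d6, a direction called for 25.5% of tested genes, all but Stra8 (-0.48 ± 0.26, adjusted p = 0.108). Sycp3 was at 14.0, 14.7 and 14.7 FPKM in Carma3xpA/+ against 4.63, 4.86 and 5.20 in wild type, 2.96-fold higher (1.39 ± 0.18, adjusted p = 7.04e-05). Rnf17 was at 3.58, 3.79 and 3.49 FPKM against 0.871, 0.880 and 0.716, 4.40-fold higher (1.34 ± 0.11, adjusted p = 2.69e-07). In both genes replicates lay close together and the groups were far apart. Tex19.1 was at 2.47, 2.94 and 2.26 FPKM against 1.17, 0.810 and 0.786 (0.89 ± 0.12, adjusted p = 7.07e-05), and Stk31 at 0.471, 0.465 and 0.452 against 0.120, 0.0787 and 0.111 (0.41 ± 0.094, adjusted p = 0.00944). The genotype difference of Tex19.1 narrowed from d3 to d6 by the test of the difference, by -1.23 ± 0.16 (adjusted p = 0.000365), where 1.88% of tested genes were called lower.

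The other 5 genes did not pass at d6. Dmrt1 was at 1.48, 1.38 and 1.24 FPKM against 0.420, 0.549 and 0.739 (0.60 ± 0.18, adjusted p = 0.0535), Dazl at 0.713, 0.831 and 0.764 against 0.320, 0.377 and 0.284 (0.42 ± 0.16, 0.134), and Mael at 0.598, 0.618 and 0.612 against 0.382, 0.246 and 0.226 (0.33 ± 0.23, 0.506). Their groups did not overlap, nor did those of Stra8 (0.52 ± 0.26, 0.278), whereas Sycp1 was under 0.1 FPKM in every library (0.04 ± 0.10, 0.887). In all, 8 of the 9 genes had non-overlapping groups with Carma3xpA/+ above, and 31.0% of tested genes had non-overlapping groups in either direction. With a pseudocount of 0.1 the count called at d6 was 7.

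At d10 6 of the 9 genes were higher in Carma3xpA/+, where 4.95% of all tested genes were called higher, and for all 9 the Carma3xpA/+ libraries lay above those of wild type, where 29.0% of tested genes had non-overlapping groups in either direction. Stra8 stood out in size. It was at 7.65, 3.57 and 7.59 FPKM in Carma3xpA/+ against 0.792, 0.824 and 0.457 in wild type, 9.07-fold higher (2.05 ± 0.26, adjusted p = 1.41e-05). The second Carma3xpA/+ library was lower than the other two, but lay above every wild type library. Mael was at 2.24, 1.97 and 2.61 FPKM against 0.502, 0.546 and 0.318 (1.17 ± 0.23, adjusted p = 0.00210), and Tex19.1 at 6.56, 6.18 and 7.37 against 2.71, 2.75 and 2.02 (1.14 ± 0.12, adjusted p = 9.66e-07). For these genes the groups were well separated. Rnf17 was at 2.40, 1.46 and 2.03 FPKM against 1.10, 0.958 and 0.699 (0.62 ± 0.11, adjusted p = 0.000565).

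The other calls at d10 depended on single libraries. Dazl was at 2.33, 0.720 and 1.51 FPKM in Carma3xpA/+ against 0.532, 0.490 and 0.672 in wild type (0.64 ± 0.16, adjusted p = 0.0119), and its call was lost without wild type replicate 2 (0.0519). Dmrt1 was at 2.89, 1.79 and 2.98 FPKM against 1.59, 1.35 and 0.587 (0.72 ± 0.18, adjusted p = 0.0144), and its call was lost without wild type replicate 3 (0.119) or Carma3xpA/+ replicate 3 (0.0807). A fit of only the 2 groups called 3 of the 9, Tex19.1, Mael and Stra8. It lost Dmrt1 (0.121) and Rnf17 (0.0644), and its filter left out Dazl. Sycp1 (0.13 ± 0.10, adjusted p = 0.443), Sycp3 (0.46 ± 0.18, 0.113) and Stk31 (0.27 ± 0.094, 0.0733) did not pass.

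In Carma3xpA/+ cells the genes took different courses between d6 and d10. There 5 rose, where 26.2% of tested genes were called higher, with Stra8 10.7-fold (2.15 ± 0.26, adjusted p = 1.09e-06), Tex19.1 2.62-fold (1.12 ± 0.12, 1.84e-07), Mael 3.73-fold (1.02 ± 0.23, 0.00110), Dmrt1 1.87-fold (0.57 ± 0.18, 0.0132) and Dazl 1.98-fold (0.46 ± 0.16, 0.0196). Sycp3 fell 2.12-fold (-0.99 ± 0.18, adjusted p = 0.000137) and Rnf17 1.84-fold (-0.65 ± 0.11, 4.79e-05), where 29.1% were called lower. The calls of Dazl and Dmrt1 were lost without Carma3xpA/+ d10 replicate 3 (0.0558 and 0.0630), and that of Dazl also without d10 replicate 1 (0.162) or d6 replicate 1 (0.0563). The genotype difference widened from d6 to d10 for Stra8 (1.53 ± 0.36, adjusted p = 0.0161), where 1.51% of tested genes were called higher, and narrowed for Rnf17 (-0.72 ± 0.15, 0.00731) and Sycp3 (-0.93 ± 0.26, 0.0445), where 2.71% were called lower. The change for Stra8 was lost without wild type d10 replicate 3 (0.0611), Carma3xpA/+ d6 replicate 2 (0.0508) or Carma3xpA/+ d10 replicate 3 (0.0527) and with a pseudocount of 0.1 (0.408). That for Sycp3 was lost without any 1 of 9 of the 12 libraries (0.0571 to 0.117).

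The transcript table gave 4 transcripts of Stra8. The level in Carma3xpA/+ at d10 lay mainly in Stra8-203, at 6.98, 3.54 and 7.74 FPKM. In wild type at d10 it was at 0.982 FPKM in the first library and listed at 0 in the other two. At d0 Stra8-202 and Stra8-203 were both present, with 5.44 and 6.50 FPKM in Carma3xpA/+ cells against 2.88 and 2.42 in wild type. The wild type mean of Stra8-203 at d0 came from libraries at 1.68, 0.382 and 5.20 FPKM. Both transcripts were listed at 0 in every wild type library at d3 and d6. For Sycp3, Sycp3-203 had the larger mean of 2 transcripts in all 8 groups, with 36.6 FPKM at d3 in Carma3xpA/+ and 25.2 in wild type. In single libraries the order could differ. Sycp3-201 was the larger in replicate 2 of wild type at d6 (4.86 against 0.515 FPKM) and of Carma3xpA/+ at d10 (4.40 against 1.35). Tex19.1-201 carried nearly all of Tex19.1, at 26.4 against 5.26 FPKM at d3, and Tex19.1-202 was at 0.499 and 0.161.

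Tex19.1 lies at mm10 chromosome 11, 121146143 to 121148319 (ENSMUSG00000039329.8), and genes of chromosome 11 were on the whole higher in Carma3xpA/+. The median log2 difference of the 1084 other tested genes of that chromosome was 0.13 at d0, 0.28 at d3, 0.26 at d6 and 0.22 at d10, against -0.04, -0.02, -0.01 and -0.04 over the 12288 tested genes of the other chromosomes. Of the chromosome 11 genes 22.3% were called higher at d3. The difference of Tex19.1 exceeded the chromosome's median by 0.02 at d0, 1.83 at d3, 0.63 at d6 and 0.93 at d10. It lay above 53.2% of the other chromosome 11 genes at d0, all of them at d3, 98.4% at d6 and 99.4% at d10. Of the 9 tested genes within 200000 bases of Tex19.1, the largest d3 differences were those of Slc16a3 (0.80, adjusted p = 0.0695), which encodes a lactate transporter, and Cd7 (0.77, adjusted p = 0.00131), which encodes a T cell surface protein. The other 8 germ line genes lie on other chromosomes, whose median differences at d3 were between -0.04 and -0.01.

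**Figure D4:**
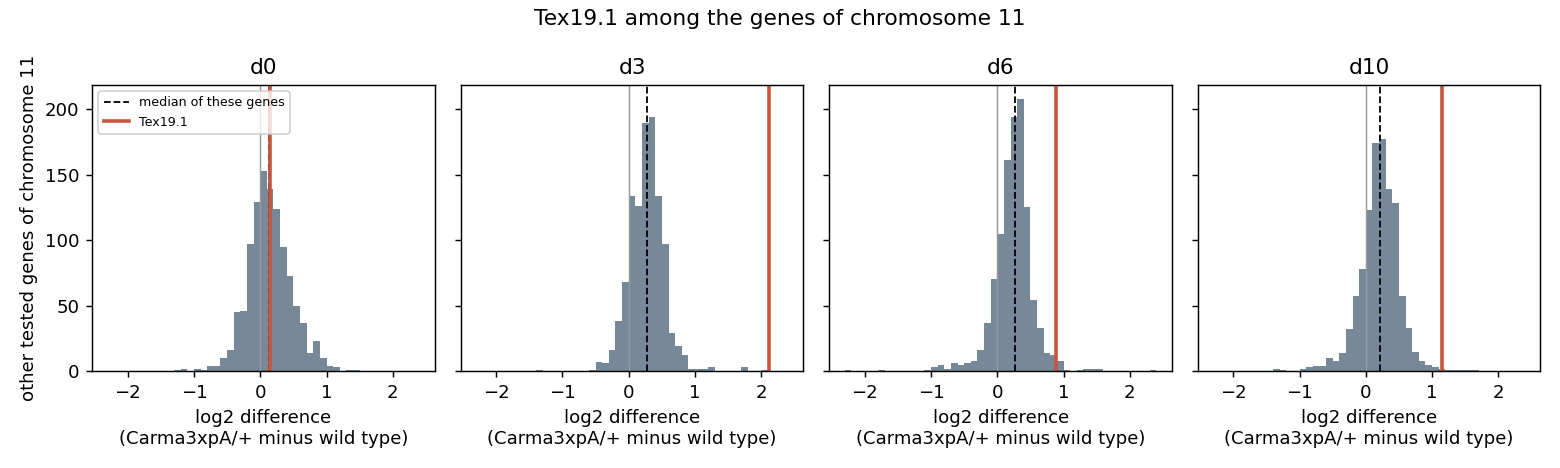
Log2 difference between Carma3xpA/+ and wild type of the 1084 other tested genes of chromosome 11 on each day, counted in bins of 0.1. The dashed line is their median and the red line Tex19.1, which lies near the median at d0 and beyond every other gene of the chromosome at d3.

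Other germ line genes, from lists that leave out the 9, were called higher more often than lower in the genotype comparison at d3. Among all tested genes the shares called higher at d3, d6 and d10 were the 4.54%, 4.30% and 4.95% given above, and the shares called lower 1.93%, 3.48% and 5.91%. At d0 9.53% were called higher and 9.29% lower. Of 25 tested genes of meiotic prophase and recombination 6 were higher at d3, 5 at d6 and 5 at d10, and 0 were lower on these days, whereas at d0 1 was higher and 3 were lower. Examples at d3 are Hormad2 (3.42 ± 0.36 against 0.854 ± 0.11 FPKM, 1.25 ± 0.15, adjusted p = 1.87e-05), an axis protein gene that is also on chromosome 11, Rec114 (5.31 ± 0.21 against 1.75 ± 0.29, 1.20 ± 0.13, 8.51e-06), which acts in meiotic DNA break formation, and Terb2 (2.27 ± 0.18 against 0.746 ± 0.33, 0.92 ± 0.094, 3.69e-06), which tethers telomeres in meiosis. Meioc and Psmc3ip of this list lie on chromosome 11 too, where 22.3% of the tested genes other than Tex19.1 were called higher at d3. Rec114 was the one gene higher at d0 (10.3 ± 0.40 against 4.12 ± 0.62 FPKM). The 3 that were lower at d0 included Stag3 (-0.49 ± 0.12, adjusted p = 0.00855), a meiotic cohesin gene, and Mlh3 (-0.46 ± 0.14, 0.0294), a crossover gene. At d6 Rec8 (1.14 ± 0.16, adjusted p = 0.000151) and Smc1b (1.03 ± 0.15, 0.000189), which encode meiotic cohesin subunits, were higher. The list's median difference at d3 was 0.18, against -0.01 over all tested genes.

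Of 14 tested piRNA pathway genes 3 were higher and 0 lower at d3, with Tdrd12 at 12.3 ± 1.3 against 5.19 ± 0.46 FPKM (1.11 ± 0.12, adjusted p = 9.05e-06), Gpat2 (0.89 ± 0.12, 9.71e-05) and Fkbp6 (0.61 ± 0.095, 0.000351), all 3 known from piRNA production in the mouse testis. The call of Fkbp6 was lost with a pseudocount of 0.1 (adjusted p = 0.0725). The median of this list at d3 was 0.13. At d6 3 of the 14 were higher and 1 lower, and at d10 3 were higher and 0 lower. At d0 1 was higher, Pld6 (0.72 ± 0.18, adjusted p = 0.0105), and 3 were lower, among them Ddx4 (-0.51 ± 0.10, 0.00201) and Tdrd5 (-0.46 ± 0.14, 0.0309). Pld6 is also on chromosome 11, where 22.2% of the tested genes other than Tex19.1 were called higher at d0. Of 24 other early germ cell genes 13 were higher and 0 lower at d3, with a median of 0.45, and 4 were higher and 3 lower at d0. Tuba3a, a testis tubulin gene, was at 12.4 ± 1.0 against 2.74 ± 0.12 FPKM (1.84 ± 0.17, adjusted p = 1.58e-06) and was already higher at d0 (29.5 ± 2.7 against 8.28 ± 2.7). Dppa3, which protects maternal methylation in the early embryo and marks primordial germ cells, was at 38.2 ± 4.1 against 15.01 ± 0.60 FPKM (1.29 ± 0.16, adjusted p = 2.96e-05). Of the 24 early germ cell genes 7 were higher and 1 lower at d6, and 9 were higher and 2 lower at d10.

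Of 20 tested genes known to repress germ line genes 1 was higher and 3 were lower at d0, with a median of -0.19. Ehmt2 was the higher one (0.46 ± 0.09, adjusted p = 0.00166), and Rnf2 (-0.56 ± 0.12, 0.00356) and Setdb1 (-0.42 ± 0.12, 0.0202) were among the lower ones. At d3 1 of the 20 was higher, a share near that of all tested genes, L3mbtl2 (10.2 ± 0.56 against 7.30 ± 0.26 FPKM, 0.43 ± 0.10, adjusted p = 0.00938), and its call was lost without Carma3xpA/+ replicate 2 (0.0533). The list's median difference at d3 was -0.03. At d6 Suv39h1 was higher (0.66 ± 0.17, adjusted p = 0.0184) and at d10 Ring1 was lower (-0.45 ± 0.12, 0.0198), and each call was lost without some library (0.0596 to 0.110 for Suv39h1, 0.0632 to 0.118 for Ring1). Of 9 genes of the DNA methylation machinery 1 was higher at d0, Dnmt3b (0.58 ± 0.16, adjusted p = 0.0163), and 3 were lower, among them Tet1 (-0.66 ± 0.14, 0.00321) and Tet2 (-0.57 ± 0.16, 0.0165), with a median of -0.22. In a fit of the 2 d0 groups alone, every d0 call named for the meiotic, piRNA, early germ cell, repressor and methylation lists was lost (adjusted p of 0.0773 for Rec114 to 0.284 for Mlh3). Those of Mlh3, Pld6, Tdrd5, Setdb1, Dnmt3b and Tet2 were also lost without some single d0 library. At d3 1 was higher, Dnmt3l, the cofactor of the de novo methyltransferases (28.8 ± 1.6 against 14.9 ± 0.39 FPKM, 0.90 ± 0.18, adjusted p = 0.00363). At d10 Dnmt3l (1.11 ± 0.18, adjusted p = 0.000323) and Dnmt3b (0.99 ± 0.16, 0.000284) were higher. Stra8 is a retinoic acid target. Of 15 tested genes of the retinoic acid response 3 were higher and 2 lower at d10, where 4.95% and 5.91% of all tested genes were. Among the higher ones were Crabp1 (1.37 ± 0.32, adjusted p = 0.00784) and Aldh1a2 (0.79 ± 0.19, 0.0100). A part of retinoic acid in the level of Stra8 was not tested. The median difference of this list at d10 was 0.06, against -0.03 over all tested genes.

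In bulk libraries fewer cells of a type and less RNA per cell cannot be told apart, so markers of the cell types present are given beside these results. The sum of 6 core pluripotency markers at d3 was 535 to 546 FPKM in wild type and 516 to 598 in Carma3xpA/+, overlapping ranges in which 0 of the 6 genes was called by limma. At d6 the sums were 53.4 to 64.3 in wild type and 53.6 to 67.5 in Carma3xpA/+, with 1 of the 6 called higher and 0 lower. At d10 the sums were 69.1 to 90.1 and 78.8 to 115. Of the 6, Nanog (1.10 ± 0.18, adjusted p = 0.000281) and Pou5f1 (1.00 ± 0.25, 0.0108) were called higher in Carma3xpA/+ and 0 lower. The median log2 difference of the 6 was 0.02. The means of Sox2 (28.2 against 37.2 FPKM), Tfcp2l1 (3.04 against 4.25) and Klf4 (11.8 against 12.7) were lower in Carma3xpA/+, and that of Esrrb was higher (0.542 against 0.368). The call of Pou5f1 was lost without wild type replicate 3 (adjusted p = 0.0966) or Carma3xpA/+ replicate 3 (0.0751) and in a fit of the 2 groups alone (0.0970). The sum of 10 feeder and fibroblast markers overlapped at d3 (31.8 to 62.1 FPKM in wild type and 31.7 to 51.2 in Carma3xpA/+). It overlapped at d6 too (206 to 385 in wild type and 225 to 257 in Carma3xpA/+). There 5 of the 10 were called lower and 1 higher, where 3.48% and 4.30% of all tested genes were. At d10 it was 738 to 904 FPKM in wild type and 347 to 495 in Carma3xpA/+, where Col1a2, Dcn and Lum were called lower and Twist2 higher (6.18 ± 0.53 against 3.80 ± 0.50 FPKM). The sum of 6 primordial germ cell markers at d3 was 28.4 to 29.9 in wild type and 50.5 to 58.8 in Carma3xpA/+, mostly Dppa3. This sum was already higher in Carma3xpA/+ at d0, at 108 to 115 FPKM against 77.96 to 87.9 in wild type. Dppa3 itself was at 73.6 against 40.9 FPKM at d0. Ddx4, another of the 6, was lower in Carma3xpA/+ at d0 (6.80 ± 0.48 against 10.1 ± 0.93 FPKM). The sum therefore follows Dppa3 there, and its difference is not shared by all 6 markers. The sums did not overlap at d6 (13.7 to 14.7 in Carma3xpA/+ and 9.22 to 12.05 in wild type) or at d10 (11.4 to 15.4 and 6.08 to 7.79). Of 8 tested genes of the 2-cell-like state 7 were lower in Carma3xpA/+ at d0, where 9.29% of all tested genes were called lower. In a fit of the 2 d0 groups alone, the calls of the 3 genes with the largest differences were lost (adjusted p of 0.0983 to 0.169). The sum of the list at d0 was 321, 85.2 and 68.3 FPKM in the Carma3xpA/+ libraries against 432 to 439 in wild type. At d3 the sums overlapped (6.83 to 14.6 against 8.28 to 15.998). Of 10 gonadal somatic markers Amh, Nr5a1, Fshr and Cyp17a1 were not analysed here. The other 6 summed to 18.3 to 37.7 FPKM in Carma3xpA/+ and 18.96 to 36.9 in wild type at d10. Most of this was Gata4 (means of 16.2 in Carma3xpA/+ and 19.6 in wild type) and Sox9 (6.94 and 5.76). Foxl2, Star and Wt1 were under 1 FPKM in every d10 library, so the sum does not show gonadal cells. The part of these cell types in the differences of the germ line genes was not tested.

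The 9 genes resembled each other to different degrees across the 24 libraries, which share the days and genotypes. Pearson's r of log2(FPKM + 1) between members ran from 0.328 for Stra8 and Sycp3 to 0.973 for Sycp1 and Stk31. Outside the 9, among tested genes with a group mean of at least 5 FPKM, the closest profile to Tex19.1 was that of Calcoco2 (r = 0.987), an autophagy receptor gene also on chromosome 11. The closest to Mael was Dnmt3l (0.979), to Sycp3 Dppa4 (0.968), to Dmrt1 Cyct (0.978), which encodes the testis cytochrome c, to Dazl Fbxo15 (0.975), an F-box gene of embryonic stem cells, and to Stk31 Gpa33 (0.985) and the piRNA gene Tdrd12 (0.983). Stra8 had the loosest match, Cox7a1 (0.917), which encodes a muscle cytochrome c oxidase subunit. Sycp1 was closest to the member Stk31, and Rnf17 to Zfp600 (0.971). These correlations describe shared change over the days as well as between the genotypes.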

How the data were processed

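Gene and transcript levels are FPKM as deposited by the authors, per the file headers. The submitters' processing notes name cutadapt, FastQC, StringTie, HISAT2 and build mm10, without versions or settings. The libraries were poly(A)-selected and stranded with dUTP, per the labels' protocols. All records are protein-coding, and in each the highest group mean is at least 0.5 FPKM. No whole-read steps were found among low values, so depth is unknown, and an exact 0 is called listed at 0.

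The 13373 of 14737 genes that reached 1 FPKM in 3 or more libraries were fitted as log2(FPKM + 1) with limma 3.58.1 in R 4.3.3, 1 mean per group, 16 residual degrees of freedom and a variance trend, for 13 two-sided comparisons, including tests of the change of the genotype difference between days. Percentages of all tested genes beside a count are the shares called by the same rule. The code was tested on simulated data. The 9 genes, the gene lists and the tests were chosen with earlier results of these data known. The text names the 9 genes, up to 3 called genes per list and comparison with the largest differences, and the 3 genes with the most similar profile to each of the 9, some of which are left out. A gene that this rule names is not reported here. Alternatives were a pseudocount of 0.1, no filter or one at 5 FPKM, median-of-ratios and quantile scaling, the groups compared alone, a replicate block, quality weights per library, a minimum log2 difference of 1, summed transcripts, and leaving out libraries.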

Additional observations from a re-analysis of the deposited data

Results flagged for a closer look

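The genotype difference changed between consecutive days, by limma's test of the change itself, in 9 comparisons among the 9 genes. From d0 to d3 it widened for Tex19.1 (1.97, adjusted p = 2.10e-06), Dmrt1 (1.49, 0.00344), Sycp1 (0.81, 0.00344), Stk31 (0.90, 0.000863) and Rnf17 (1.15, 0.000293). From d3 to d6 it narrowed for Tex19.1 (-1.23, 0.000365). From d6 to d10 it widened for Stra8 (1.53, 0.0161) and narrowed for Sycp3 (-0.93, 0.0445) and Rnf17 (-0.72, 0.00731).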

How the results depend on the processing

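Numbers of the 9 genes called are given for the alternatives that moved them by over 1.5 times. For wild type d6 to d10, where 1 gene was called, the count was 4 with a pseudocount of 0.1, 3 with the replicate block, 4 with sample quality weights, 2 with summed transcript FPKM, 3 without replicate 1 of Carma3xpA/+ at d0 and 0 with a minimum log2 difference of 1. That minimum also gave 2 for Carma3xpA/+ d0 to d3, 3 for Carma3xpA/+ d6 to d10, 3, 2 and 3 for the genotype comparisons at d3, d6 and d10, and 3 and 1 for the genotype difference changing from d0 to d3 and from d6 to d10, by its construction. The genotype comparison at d0 gave 0 with a pseudocount of 0.1, 0 with the groups compared alone, 4 with quality weights (1 higher, 3 lower) and 2 with summed transcripts (1 higher, 1 lower). At d3 it gave 3 with the filter at 5 FPKM, which tests fewer genes, 9 with quality weights and 8 without replicate 1 of Carma3xpA/+ at d0. It gave 7 at d6 with a pseudocount of 0.1 and 3 at d10 with the groups compared alone. The change from d0 to d3 gave 3 with the filter at 5 FPKM and 8 with quality weights. The change from d3 to d6, called lower for 1 gene, gave 2 with a pseudocount of 0.1, without filter or with quantile normalization (1 higher, 1 lower each), 2 with summed transcripts (both lower), 3 with the groups compared alone or without the divergent d0 library (1 higher, 2 lower each), and 5 with quality weights (1 higher, 4 lower). The change from d6 to d10, called for 3 genes, gave 1 with a pseudocount of 0.1 (lower) and 5 with quality weights (3 higher, 2 lower). Where no value above shows it, the cause was not tested.

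With each compared library left out in turn, the count was 0 to 2 genes for the genotype comparison at d0 (the 2 being 1 higher and 1 lower), 1 to 2 for wild type d6 to d10, 1 to 2 for the change from d3 to d6 and 1 to 3 for the change from d6 to d10. Of 62 called differences of the 9 genes 8 were lost without some library, and none changed direction under any alternative. The median of all tested genes moved most in the change from d3 to d6 in Carma3xpA/+, by -0.10 with median-of-ratios scaling and -0.17 with quantile normalization. Summed transcripts gave wild type d0 levels of 6.11 FPKM for Stra8, 2.49 for Sycp1, 31.8 for Sycp3 and 6.25 for Stk31. With a pseudocount of 0.1 the difference of Tex19.1 from the chromosome 11 median was -0.016 at d0, 1.96 at d3, 1.08 at d6 and 1.14 at d10. Same-numbered libraries did not deviate together (correlations of -0.17 to 0.24 over 30 pairs), and with the replicate block 1 of 62 calls was lost, that of Sycp3 for d6 to d10 (adjusted p = 0.0501). Depth is unknown, so limits for genes near 0 such as Sycp1 cannot be given.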
